A study of Mus musculus with 847 samples.

Results

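The 8 genes described here are App, Bace1, Psen2, Mapt, Prnp, Grn, Sod1 and Tardbp, chosen by name for the part their products have in neurodegenerative disease, most of them as genes of inherited forms. They are 8 of the 21076 genes in the deposited table of read counts, and all 8 were tested in every region. The series is RNA sequencing of 15 regions dissected from the brains of 59 C57BL/6JN mice, an inbred strain with no added allele or treatment in any group. The labels name the regions as caudate putamen, cerebellum, choroid plexus, corpus callosum, entorhinal cortex, anterior and posterior hippocampus, hypothalamus, medulla, motor cortex, olfactory bulb, pons, subventricular zone, thalamus and visual cortex. There were 5 females and 5 males at 3, 12, 15 and 18 months, 5 females and 6 males at 21 months, 5 males at 26 months and 3 males at 28 months, so the oldest ages are male only. Each mouse gave at most 1 library per region, and a region had between 51 and 59 of the 847 libraries.

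These genes belong to several pathways. App encodes the amyloid precursor protein, which the beta-secretase BACE1 and then the gamma-secretase complex, with presenilin 1 or presenilin 2 as its catalytic subunit, cut to release the amyloid beta peptide that forms plaques in Alzheimer disease. Mapt encodes tau, a microtubule-binding protein of neurons that aggregates in Alzheimer disease and frontotemporal dementia, and Prnp encodes the prion protein, a membrane-anchored protein whose misfolded form is the agent of prion disease. Grn encodes progranulin, a secreted and lysosomal glycoprotein made by microglia and neurons, whose loss causes frontotemporal dementia or a lysosomal storage disease. Sod1 encodes the cytosolic copper and zinc superoxide dismutase and Tardbp encodes TDP-43, a nuclear RNA-binding protein, and both are mutated in amyotrophic lateral sclerosis.

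The shallowest library held 481444 reads and the deepest 26756735 (median 6716032), and 10 lay under 1000000. Levels are given as CPM, read counts divided by the TMM-scaled library size and set to a common depth. CPM is compared between regions for 1 gene, and between genes only after division by the exon length in kilobases. That length merges the exons of all annotated transcripts of a gene: 13.0 for App, 3.97 for Sod1 and 2.34 for Prnp. It can exceed the length of any single transcript, so the order of the genes depends on it. The choroid plexus libraries carried choroid plexus markers at a median summed level of 9191 CPM, against at most 1228 CPM, in corpus callosum, elsewhere. They also carried neuron markers at 8172 CPM, the seventh highest of the 15 regions, so they are not libraries of choroid plexus alone. The corpus callosum libraries had the third highest oligodendrocyte marker sum, 23258 CPM, beside 6237 CPM of neuron markers.

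The genes lie on 6 chromosomes (GRCm38, GENCODE vM21): App at chr16:84949685-85173766, Bace1 at chr9:45838580-45864399, Psen2 at chr1:180227004-180263438, Mapt at chr11:104231390-104332090, Prnp at chr2:131909928-131938429, Grn at chr11:102430315-102437048, Sod1 at chr16:90220754-90226329 and Tardbp at chr4:148612382-148627019. Windows of 250 bases upstream of a RefSeq gene start (GRCm38.p6) were found for 6 of the genes. Bace1 and Mapt had none. The windows of Prnp, Sod1 and Tardbp are printed 5′ to 3′ to show the start regions of the gene with the highest level per kilobase of the 8 and of the pair whose levels fell with age in 1 region each. Capitals mark matches on either strand to the GC box GGGCGG and the CCAAT box CCAAT; the E-box CACGTG was also searched and was found in none of these 3. Overlapping matches run together.
Prnp, chr2:131909678-131909927, + strand: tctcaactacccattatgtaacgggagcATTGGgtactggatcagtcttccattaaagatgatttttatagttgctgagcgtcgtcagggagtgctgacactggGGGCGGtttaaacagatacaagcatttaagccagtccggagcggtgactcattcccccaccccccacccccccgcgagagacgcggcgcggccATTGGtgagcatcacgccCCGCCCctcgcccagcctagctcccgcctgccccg
Sod1, chr16:90220512-90220761, + strand: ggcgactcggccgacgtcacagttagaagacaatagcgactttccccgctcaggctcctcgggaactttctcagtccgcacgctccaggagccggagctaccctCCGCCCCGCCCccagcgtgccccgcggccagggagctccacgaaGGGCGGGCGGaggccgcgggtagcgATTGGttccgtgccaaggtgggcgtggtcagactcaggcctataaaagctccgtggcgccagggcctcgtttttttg
Tardbp, chr4:148626997-148627246, - strand: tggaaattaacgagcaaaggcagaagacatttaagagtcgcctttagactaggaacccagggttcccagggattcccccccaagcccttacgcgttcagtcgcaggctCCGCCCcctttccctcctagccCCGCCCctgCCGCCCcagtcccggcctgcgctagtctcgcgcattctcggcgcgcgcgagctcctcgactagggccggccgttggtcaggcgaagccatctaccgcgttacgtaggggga
The Prnp window held 2 GC boxes and 2 CCAAT boxes, the Sod1 window 4 and 1, and the Tardbp window 3 and 0. The App window had 1 GC box and no CCAAT box, and the Grn window had 1 of each. Psen2 had a pair of windows, for different starts, with 2 GC boxes in one and 1 E-box in the other. A GC box was present in 32.7%, a CCAAT box in 33.8% and an E-box in 6.02% of all 32851 windows of this length. The GC content was 58.8% for Prnp, 66.4% for Sod1, 63.6% for Tardbp, 70.8% for App and 53.6% for Grn, against a median of 52.4% over all windows. For Psen2 it was 62.8% in the window with GC boxes and 44.8% in the one with the E-box.

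All 8 genes were read in every region, at levels that differed far more between genes than between regions. Averaged over the region means, Prnp was highest at 432 CPM per kilobase of merged exons, followed by App at 125, Mapt at 70.1, Sod1 at 38.9, Grn at 22.7, Bace1 at 20.9, Tardbp at 9.35 and Psen2 at 4.25. Before division by length, App was highest, at 1622 CPM against 1013 for Prnp. Within a gene, the region with the highest mean exceeded the lowest by a factor of 1.32 for Grn, 1.34 for Bace1, 1.57 for Sod1, 1.72 for Mapt and Tardbp, 1.87 for App, 1.94 for Prnp and 2.02 for Psen2. A difference in level between regions passed edgeR's quasi-likelihood F-test for all 8 genes, as it did for 100.0% of the 15069 genes tested, so that call sets nothing apart.

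**Figure D1:**
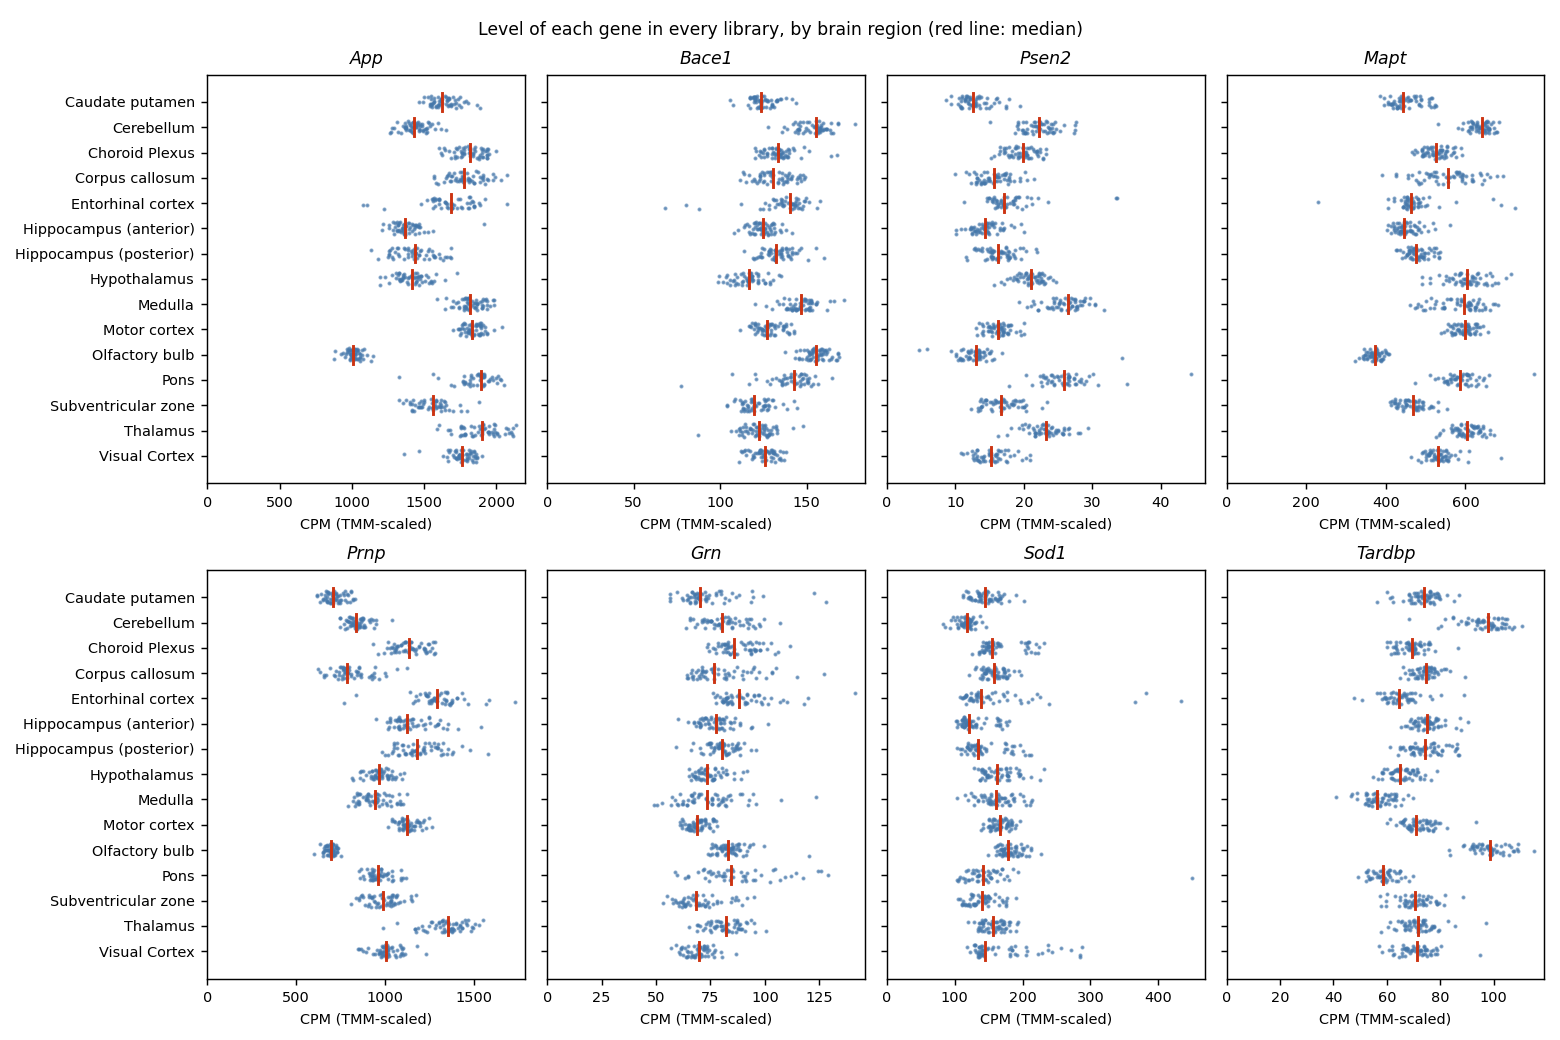
Level of each gene in every library (x axis, TMM-scaled CPM from 0) by brain region (y axis); each blue point is 1 mouse and the red line is the median. App, Mapt and Prnp have their lowest medians in olfactory bulb, where Tardbp has its highest, and Sod1 points form separate groups in several regions.

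App was highest in thalamus, with libraries between 1587 and 2137 CPM (median 1900, mean 1896 ± 132 SD, n = 59), and lowest in olfactory bulb, between 874 and 1147 CPM (median 1010, mean 1013 ± 49.1 SD, n = 58). These ranges did not overlap. Of the 14 steps between neighbours in the order of region means, 12 were within 1 SD of single libraries, the larger SD of each pair. This sets a step against the spread of libraries, and the order of neighbouring means was not tested. The step from anterior hippocampus (1381 CPM) to olfactory bulb was 3.61 SD, the widest for any of the 8 genes. Bace1 had no step above 1 SD: its means ran evenly from 156 ± 6.67 CPM (SD, n = 58) in olfactory bulb to 116 ± 8.36 CPM (SD, n = 55) in hypothalamus. Without TMM scaling the lowest Bace1 mean was that of caudate putamen. Psen2 was highest in pons, between 17.9 and 44.4 CPM (median 25.9, n = 51), closely followed by medulla, and lowest in caudate putamen, between 8.62 and 19.4 CPM (median 12.6, n = 58).

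Mapt was highest in cerebellum, between 532 and 683 CPM (median 643, mean 637 ± 26.8 SD, n = 58), and lowest in olfactory bulb, between 321 and 408 CPM (median 372, mean 371 ± 18.3 SD, n = 58), with no overlap. Prnp was highest in thalamus, between 991 and 1553 CPM (median 1355, n = 59), and lowest in olfactory bulb, between 602 and 753 CPM (median 698, n = 58), again without overlap. Without scaling, the lowest Prnp mean was that of caudate putamen. Tardbp went the other way. It was highest in olfactory bulb, between 83.4 and 115 CPM (median 98.6, n = 58), and in cerebellum (96.4 ± 7.82 SD, n = 58), then dropped by 2.71 SD to 75.2 CPM in anterior hippocampus and was lowest in medulla, between 40.9 and 69.8 CPM (median 56.5, n = 58).

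Grn had the smallest ratio of highest to lowest region mean of the 8 genes, although without TMM scaling Bace1 did (1.39 against 1.41 for Grn). The Grn means ran from 91.0 ± 12.6 CPM (SD, n = 51) in entorhinal cortex to 68.9 ± 4.48 CPM (SD, n = 59) in motor cortex, and no step between neighbours exceeded 0.394 SD. Sod1 ran from 182 ± 15.9 CPM (SD, n = 58) in olfactory bulb to 116 ± 11.8 CPM (SD, n = 58) in cerebellum, also with no step over 1 SD. In entorhinal cortex the Sod1 libraries spread from 108 to 434 CPM around a median of 138, and in pons from 103 to 450 around 142.

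Corpus callosum and choroid plexus were each set against the mean of the other 14 regions in 1 fit over all libraries. In corpus callosum, App was higher by 0.17 ± 0.013 (log2, SE), Mapt by 0.09 ± 0.015 and Tardbp by 0.05 ± 0.015, while Prnp fell by 0.31 ± 0.017 and Psen2 fell by 0.22 ± 0.027 relative to the rest (edgeR adjusted p at most 0.00189 for each). Of all genes tested, 46.3% were called higher and 37.5% lower there, so 3 and 2 of 8 are no more than the background share. In choroid plexus, Prnp (0.20 ± 0.016), App (0.19 ± 0.013), Grn (0.18 ± 0.021), Psen2 (0.14 ± 0.026) and Sod1 (0.13 ± 0.033) were higher and Tardbp fell by 0.07 ± 0.015 relative to the rest. The background there was 42.2% higher and 35.1% lower. Bace1 passed neither test. Mapt in choroid plexus did not pass either (difference 0.0098 ± 0.016), beside the neuron marker sum in those libraries.

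With age, 1 of the 8 genes changed across most of the brain. Change with age was fitted in each region as the slope of log2 CPM per month of age beside sex, with edgeR's quasi-likelihood test, and called at a Benjamini-Hochberg adjusted p under 0.05 over all genes of that region. Of the 120 pairs of gene and region, 17 rose and 2 fell, or 14.2% and 1.67%, against 5.87% rising and 4.71% falling over all genes and regions. Grn gave 10 of the 17 rises. Of the 105 pairs of the other 7 genes, 7 rose (6.67%) and 2 fell (1.90%), which is close to the rising background and under the falling one. App rose in 3 regions, Prnp in 2 and Sod1 in 2. Sod1 fell in 1 region and Tardbp in 1, and Bace1, Psen2 and Mapt passed in no region. The regions come from the same mice, so counts of regions are not independent.

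By region, 3 of the 8 genes were called in choroid plexus, where 20.2% of all genes were. In corpus callosum 2 of 8 were called (17.8% of all genes), in cerebellum 2 (17.0%), in caudate putamen 2 (13.4%), in hypothalamus 2 (6.88%) and in thalamus 2 (3.83%). A single gene was called in medulla (10.3%), anterior hippocampus (9.39%), posterior hippocampus (6.04%), subventricular zone (7.77%), pons (4.69%) and olfactory bulb (15.6%). None was called in motor cortex, where 16.6% of all genes were, in visual cortex (9.59%) or in entorhinal cortex, where only 0.0964% were.

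**Figure D2:**
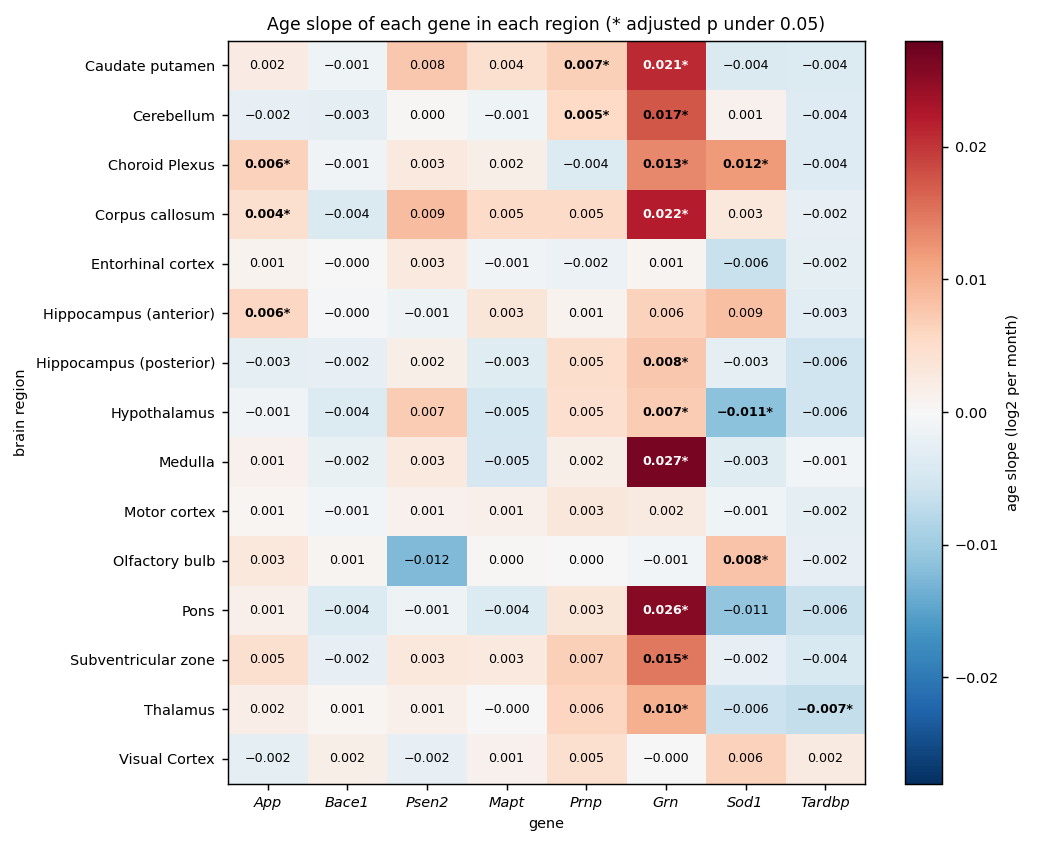
Age slope (log2 per month, colour and printed value) of each gene (columns) in each region (rows) from edgeR with sex beside age; an asterisk marks an adjusted p under 0.05. The Grn column holds 10 of the 17 called rises, and the Bace1, Psen2 and Mapt columns hold none.

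In the amyloid group, App rose modestly in choroid plexus, anterior hippocampus and corpus callosum. In choroid plexus, App ran from 1603 to 1903 CPM at 3 months (median 1715, n = 10) and from 1771 to 1947 at 21 months (median 1891, n = 11). At 28 months the 3 mice had 1934, 1938 and 1995 CPM, all above every 3-month mouse. The slope was 0.00640 ± 0.00131 log2 per month (SE, adjusted p = 0.00032, n = 57). In anterior hippocampus the slope was 0.00573 ± 0.00169 (adjusted p = 0.0202, n = 57), and the 26-month mouse with the highest value, 1911 CPM, stood apart from the other 4, which had at most 1527. Without that library, of mouse 5, the slope was 0.00435 (adjusted p = 0.0364). Of 7 choroid plexus markers that could be tested in anterior hippocampus, 6 rose, and the median slope of the 7 was 0.178 log2 per month. The sum over all 8 markers was 129 to 243 CPM at 3 months (median 192) and 219 to 246 at 28 (median 245.5). These ranges overlap, and sums at the ages between are not given here. With the mean of these markers as a further term the App call did not hold (0.00383, adjusted p = 0.0997). It did not hold either in males alone (adjusted p = 0.248), in mice 16 to 56 alone (0.247) or at ages 3 to 21 months alone (0.320). In corpus callosum the slope was 0.00448 ± 0.00165 (adjusted p = 0.0492, n = 57), and the 3-month range of 1565 to 1810 CPM (n = 10) overlapped the 28-month values of 1749, 1911 and 1991. Of 12 mice left out in turn, leaving out mouse 3, 16, 17, 18, 37 or 38 ended that call, which was also lost in males alone and with no filter on low counts. Oligodendrocyte markers moved in the same regions: 5 of 10 rose in choroid plexus and 3 of 10 each in anterior hippocampus and corpus callosum, where 6 of 8 astrocyte markers also rose. Their part in the App slopes was not tested.

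Bace1, the enzyme that makes the first cut, had a slope under 0 in 12 of the 15 regions, but none passed. The steepest was -0.00413 ± 0.00187 log2 per month in corpus callosum (adjusted p = 0.119, n = 57). Psen2 ranged from -0.0123 ± 0.00553 in olfactory bulb (adjusted p = 0.123, n = 58) to 0.00870 ± 0.00385 in corpus callosum (adjusted p = 0.110, n = 57). Its smallest adjusted p was 0.0795, in hypothalamus. Of the exon bases of Bace1, 15.4% are shared with Rnf214 on the opposite strand. The libraries are unstranded, so reads from such a stretch cannot be told apart. Rnf214 fell in corpus callosum with a slope of -0.00618.

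Of 20 other genes of amyloid processing (300 pairs with regions), 14 pairs rose and 12 fell, or 4.67% and 4.00%. Both shares are near the background, and the median slope was 0.000681, against region medians over all genes between -0.000598 and 0.000624. Itm2b, which encodes the BRI2 protein that binds the amyloid precursor protein, rose in 5 regions, and Aplp1, an App paralog, rose in 2. Apba2, an adaptor that binds the tail of App, fell in 3, and the sorting receptor gene Sorl1 fell in 2.

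Mapt passed the slope test in no region. Its slopes ran from -0.00492 ± 0.00229 in hypothalamus (adjusted p = 0.199, n = 55) to 0.00545 ± 0.00305 in corpus callosum (adjusted p = 0.223, n = 57), and 8 of 15 were above 0. An unadjusted p under 0.05, which is not a call, was found for 5. No share of all genes at that level is set beside this count. At single ages 3 differences from 3 months passed. In medulla, Mapt ran from 489 to 670 CPM at 3 months (median 610, n = 10) and was 462, 478 and 495 CPM in the 3 mice of 28 months. A single 3-month library, at 489 CPM, lay within these, and the difference was -0.31 ± 0.089 (log2, SE, adjusted p = 0.00914). In hypothalamus, it ran from 568 to 703 CPM at 3 months (median 611, n = 9), and both 28-month libraries, at 491 and 512, were below every 3-month one (-0.30 ± 0.085, adjusted p = 0.0320). In the same 2 hypothalamus libraries, ependyma markers summed to 136 and 141 CPM, against 6.52 to 96.2 at 3 months, and blood markers to 34.9 and 36.8 against 2.61 to 20.8. Neuron markers summed to 3863 and 4431 CPM against 4237 to 6658, which overlap, and the part of these in the Mapt difference was not tested. In neither region did 26 months differ by the test. In olfactory bulb, Mapt was higher at 12 months (0.11 ± 0.028, adjusted p = 0.00898, n = 10 and 10) and at no later age.

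Of 17 other genes of tau and microtubules (255 pairs), none rose and 23 fell (9.02%), with a median slope of -0.00197. Beside the falling background of 4.71% these counts are higher, and 4 of the 10 neuron markers also fell in caudate putamen and 3 in choroid plexus. Over all regions the neuron markers fell in 17 of 150 pairs; their part in the tau list's falls was not tested. Fyn, a kinase that phosphorylates tau, and Ppp2ca, the catalytic subunit of a phosphatase that removes phosphate from tau, each fell in 5 regions.

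Prnp rose in caudate putamen and cerebellum, and its slope was above 0 in 13 of 15 regions. In caudate putamen the mice of 3 months had 617 to 746 CPM (median 673, n = 9), those of 21 months 653 to 753 (median 699, n = 11), those of 26 months 707, 785, 789, 820 and 829, and the 3 mice of 28 months 783, 802 and 817. Every 28-month mouse was above every 3-month mouse, while the 21-month range overlapped. The slope was 0.00670 ± 0.00185 log2 per month (adjusted p = 0.00919, n = 58). In cerebellum, Prnp went from 747 to 845 CPM at 3 months (median 811, n = 10) to 882, 912 and 923 at 28 months, with a slope of 0.00547 ± 0.00170 (adjusted p = 0.0179, n = 58). Without the ages over 21 months neither passed. The cerebellum call also did not hold with the mean of 10 genes that follow Sod1, described with that gene, as a further term (0.00299, adjusted p = 0.124). In subventricular zone the slope was as steep, at 0.00673 ± 0.00231, but missed the threshold (adjusted p = 0.0594, n = 55). At 28 months against 3, motor cortex also differed (0.17 ± 0.040, adjusted p = 0.00386), as did visual cortex at 26 months (0.18 ± 0.054, adjusted p = 0.0341).

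Prnp shares 145 exon bases on its own strand with Prn, the row whose pattern was most like it (Pearson r = 0.98 over the 15 region means). Prn was read at 41.8 CPM on average, 4.14% of Prnp, and reads of the shared bases cannot be told apart. Of the other prion-family genes, Prnd passed the filter on low counts in no region, and Sprn, the gene of the Shadoo protein, fell in 3 of 15.

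Grn rose in 10 of 15 regions. In medulla, the mice of 3 months had 49.1 to 67.6 CPM (median 60.6, n = 10), those of 12 months 57.3 to 80.8 (median 66.1, n = 9), those of 15 months 59.6 to 83.2 (median 73.5, n = 10), those of 18 months 62.2 to 96.0 (median 77.0, n = 10), and those of 21 months 70.6 to 124 (median 83.8, n = 11). The 5 mice of 26 months had 78.5, 81.6, 81.9, 89.3 and 94.3 CPM. The 3 mice of 28 months had 69.3, 75.9 and 82.3 CPM. From 21 months on every medulla library was above every 3-month one. The slope was 0.0266 ± 0.00332 log2 per month (adjusted p = 7.36e-09, n = 58), the steepest of any of the 8 genes.

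In pons, Grn ran from 58.7 to 89.3 CPM at 3 months (median 74.5, n = 9), and the 28-month mice had 104, 112 and 129 CPM, clear of the young (slope 0.0255 ± 0.00381, adjusted p = 1.74e-06, n = 51). In corpus callosum, the 3-month range was 64.2 to 78.6 CPM (median 69.0, n = 10), the 21-month range 69.8 to 105 (median 89.9, n = 11), and the 28-month mice had 94.9, 115 and 127 CPM (slope 0.0220 ± 0.00292, adjusted p = 4.08e-08, n = 57). The mean at 28 months was 1.59 times that at 3 months in corpus callosum, 1.58 in pons and 1.57 in caudate putamen. It was 1.28 in medulla, 1.27 in cerebellum, 1.31 in subventricular zone, 1.24 in choroid plexus, 1.16 in thalamus and 1.14 in posterior hippocampus. In hypothalamus, although the slope was called as rising, the 28-month mean of 2 libraries was 0.984 times that at 3 months.

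The slopes of the other called regions were 0.0208 in caudate putamen, 0.0174 in cerebellum, 0.0147 in subventricular zone, 0.0134 in choroid plexus, 0.00997 in thalamus, 0.00756 in posterior hippocampus and 0.00707 in hypothalamus. The hypothalamus call did not hold without mouse 37 or 40. In mice 16 to 56 alone, which are those of 3, 15, 18 and 21 months, Grn rose in 5 regions, and in males alone in 7. Grn passed in neither motor, visual nor entorhinal cortex, nor in olfactory bulb, and anterior hippocampus missed the threshold (0.00645 ± 0.00232, adjusted p = 0.0675, n = 57). In visual cortex the mice of 3 months had 64.8 to 76.2 CPM (median 70.1, n = 10) and the 28-month mice 63.1, 73.3 and 75.5. These groups overlapped. The slopes of Grn differed between regions by a test of the difference itself (edgeR F-test of the age by region terms, adjusted p = 3.53e-23).

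**Figure D3:**
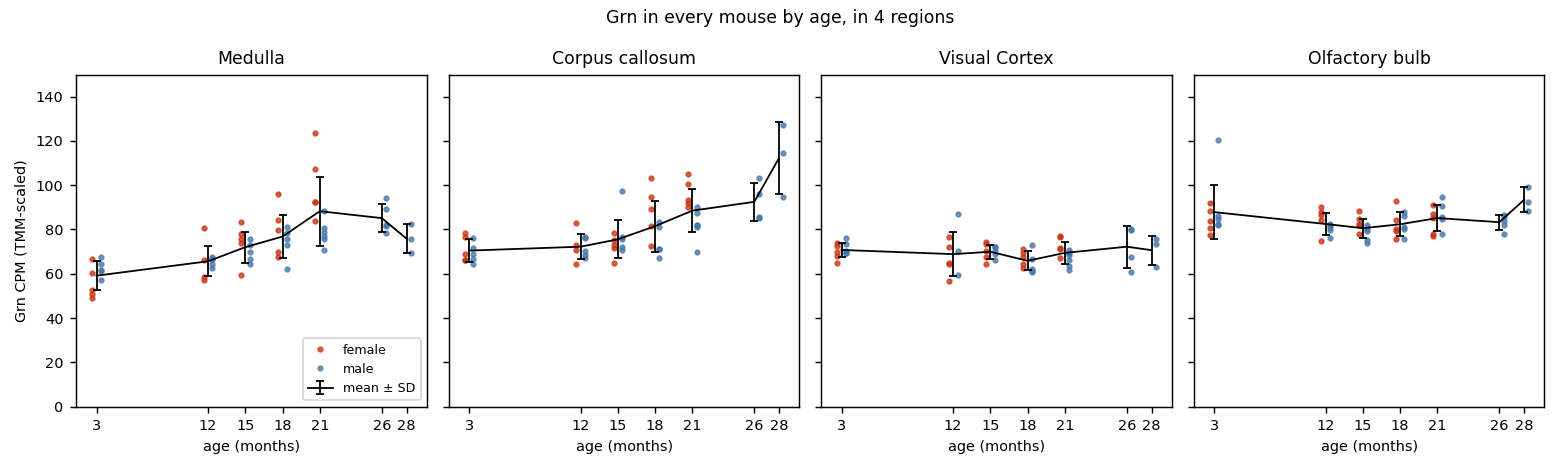
Grn level (y axis, TMM-scaled CPM from 0) against age in months (x axis) in medulla, corpus callosum, visual cortex and olfactory bulb; points are single mice (red female, blue male) and black lines the mean ± SD at each age. Medulla and corpus callosum rise with age, with 28-month corpus callosum mice at 94.9, 115 and 127 CPM, and visual cortex stays level. In olfactory bulb the highest library, at 120 CPM, is of 3 months, where the median is 84.5. The 28-month mice there have 88.2 to 99.4 CPM (median 92.6).

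Markers of microglia, the phagocytes of the brain, moved with Grn. The summed level of 10 activated microglia markers in medulla ran from 156 to 281 CPM at 3 months and from 390 to 479 at 28 months, and all 10 rose with age. In visual cortex the sums ran from 125 to 172 and from 165 to 263, and 4 of the 8 that could be tested there rose. None of the markers was at 0 in all libraries of a region. Across the 15 regions, the Grn slope and the median slope of these markers had a Pearson r of 0.92, and with 8 homeostatic microglia markers r was 0.71; the points share mice and libraries. In homogenised tissue, a change in the number of cells of a type and a change in RNA per cell cannot be told apart. With the mean level of both marker lists as a further term beside age, Grn rose in 0 regions by edgeR's test and fell in pons (slope -0.0172 ± 0.00618, adjusted p = 0.0366). At an unadjusted p under 0.05 it rose in none and fell in 3. With the same term the called slopes of App in choroid plexus (0.00162), anterior hippocampus (-0.00180) and corpus callosum (0.00905), and of Prnp in caudate putamen (-0.00273) and cerebellum (0.00206), did not pass, nor did those of Sod1 in choroid plexus (0.00437) and hypothalamus (0.00105) and of Tardbp in thalamus (-0.00223), while Sod1 in olfactory bulb did (0.00880). Prnp then rose in choroid plexus (0.0124) and thalamus (0.0130) and fell in medulla (-0.0142), and Psen2 and Mapt each fell in caudate putamen and choroid plexus. These markers themselves rise with age, and the standard error in pons grew from 0.00381 to 0.00618. The shares of all genes called, or at an unadjusted p under 0.05, with this term are not set beside these counts. The lost calls are therefore not shown to be particular to the genes described here.

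**Figure D4:**
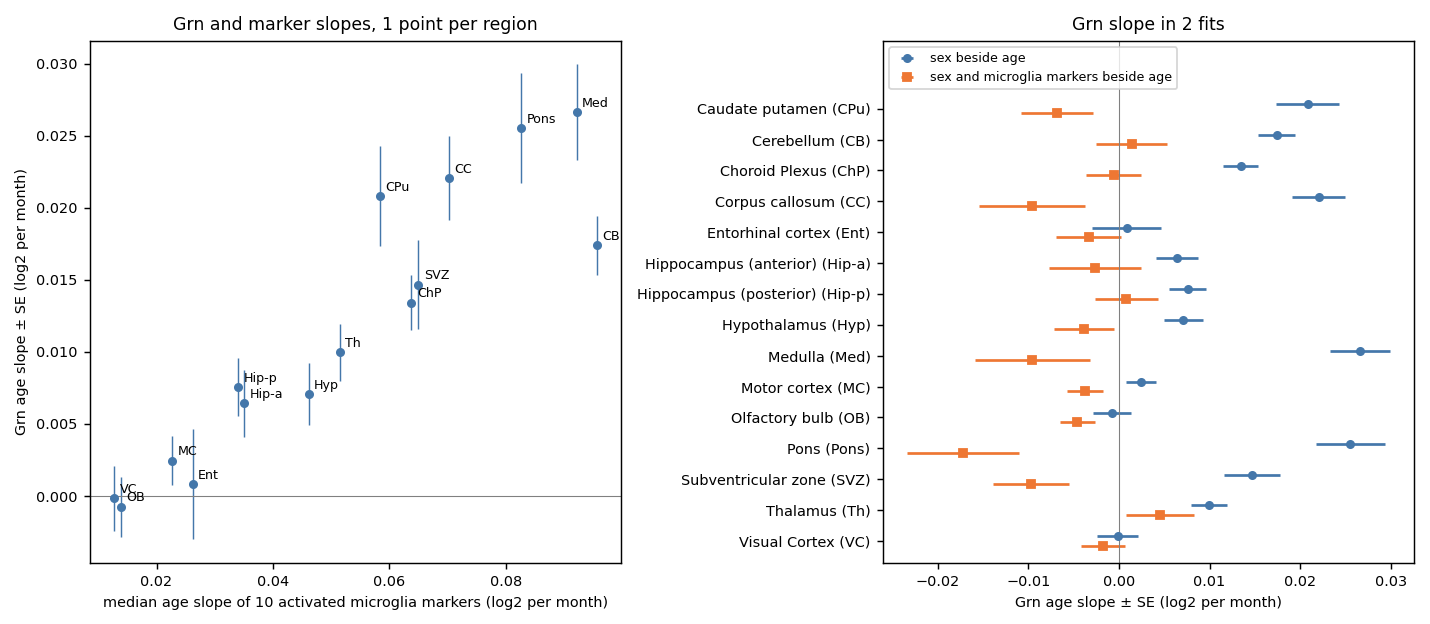
Left: Grn age slope ± SE (y axis) against the median age slope of 10 activated microglia markers (x axis), both in log2 per month, 1 point per region. Right: Grn slope ± SE by region with sex beside age (blue circles) and with sex and the mean microglia marker level beside age (orange squares). The left points rise together (r = 0.92), and the highest orange square is thalamus at 0.00453.

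Of 12 other genes of progranulin and lysosome biology (180 pairs), 70 pairs rose (38.9%) and 2 fell (1.11%), with a median slope of 0.00531. Each of the 12 rose in at least 1 region. Gpnmb, a membrane glycoprotein of phagocytes with lysosomal storage, rose in 13 regions, with slopes up to 0.167, and Ctsd, the gene of the lysosomal protease cathepsin D, in 12. This list shares 1 gene with the homeostatic microglia markers. Ctsd also had the profile most like that of Grn over the 105 groups of region and age, each centred on its region (r = 0.89), followed by the astrocyte gene Gfap (r = 0.87) and the microglial complement gene C1qa (r = 0.86). Tmem106b, which encodes a lysosomal membrane protein that modifies the risk of progranulin disease, rose in 1 region and fell in 1. Grn shares 1.96% of its exon bases with Fam171a2 on the opposite strand. That gene fell in corpus callosum (slope -0.00922) while Grn rose.

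Sod1 had called slopes in both directions, and its libraries fell into separate groups within some regions. In choroid plexus, 15 of 57 libraries had 197 to 232 CPM and the other libraries 126 to 168, with none between. The upper 15 included 0 of 10 libraries at 3 months, 3 of 8 at 12, 1 of 10 at 15, 4 of 10 at 18, 6 of 11 at 21, 1 of 5 at 26 and 0 of 3 at 28 months. At 3 months Sod1 ran from 126 to 165 CPM (median 141, n = 10), at 21 months from 143 to 232 (median 203, n = 11), and at 28 months the 3 mice had 143, 147 and 150. The slope was 0.0119 ± 0.00422 log2 per month (adjusted p = 0.0379, n = 57), although the oldest mice lay within the range of the youngest. In olfactory bulb, Sod1 went from 162 to 204 CPM at 3 months (median 170, n = 10) to 176, 199 and 207 at 28 months (slope 0.00789 ± 0.00211, adjusted p = 0.00626, n = 58), and the groups overlapped.

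In hypothalamus, Sod1 ran from 148 to 213 CPM at 3 months (median 181, n = 9), and from 138 to 161 at 21 months (median 143, n = 11). The 4 libraries of 26 months had 134, 165, 182 and 231 CPM and both of 28 months 144. The slope fell by 0.0114 ± 0.00363 (adjusted p = 0.0420, n = 55). Within regions, 10 genes followed Sod1 closely from library to library: Dpysl2, Tmem250-ps, Dusp3, Scn2b, Nmt2, Paip1, Lyrm4, Zscan26, Sfxn5 and Tcte1, picked after the Sod1 values were seen and for that likeness. Of these 10, 2 rose in choroid plexus, 3 rose in olfactory bulb and 6 fell in hypothalamus. With their mean level as a further term, the Sod1 slope was 0.00341 ± 0.00175 in choroid plexus (adjusted p = 0.179), 0.00413 ± 0.00180 in olfactory bulb (adjusted p = 0.130) and 0.00201 ± 0.00180 in hypothalamus (adjusted p = 0.712). None of the 3 calls held, and the hypothalamus slope changed sign. Because the 10 genes were picked to follow Sod1 in these same libraries, the term takes up Sod1 differences by that choice. The lost calls are therefore no independent test. Without this term, 12 mice were left out in turn. Leaving out mouse 17 or 40 ended the choroid plexus call, and leaving out mouse 17, 37, 39, 40 or 57 ended the hypothalamus call. In males alone none of the 3 calls held, that of olfactory bulb included. The choroid plexus and hypothalamus calls were also lost with no filter on low counts, and the hypothalamus call with choroid plexus markers as a further term. With the term, Sod1 passed in cerebellum (0.00624 ± 0.00191, adjusted p = 0.0151, against 0.00113 without the term) and visual cortex (0.00764 ± 0.00221, adjusted p = 0.0171, against 0.00641). Grn still rose in 10 regions with that term, with anterior hippocampus in place of hypothalamus.

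Of 10 other genes of superoxide and peroxide defence (150 pairs), 14 pairs rose (9.33%) and 10 fell (6.67%), both above the background shares, with a median slope of 0.000917. The peroxiredoxin genes Prdx1 and Prdx6 rose in 6 and 4 regions. Sod2, the mitochondrial superoxide dismutase, fell in 4 regions and Prdx2 in 2.

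Tardbp fell in thalamus, and its slope was under 0 in 14 of 15 regions. The mice of 3 months had 69.7 to 97.0 CPM (median 76.2, n = 10), those of 18 months 57.8 to 72.0 (median 69.5, n = 10), those of 21 months 60.4 to 77.8 (median 66.9, n = 11), and the 3 mice of 28 months 68.7, 71.8 and 71.8. The groups overlapped at every age, and the oldest mice were not the lowest. The slope was -0.00667 ± 0.00187 log2 per month (adjusted p = 0.0272, n = 59). Pons (-0.00623, adjusted p = 0.0753) and hypothalamus (-0.00554, adjusted p = 0.0973) missed the threshold. Without male mouse 17, whose 97.0 CPM was the highest thalamus value at 3 months, the call did not hold (slope -0.00590, adjusted p = 0.0533). With the mean of the 10 genes that followed Sod1 as a further term, with the microglia markers as one, or in males alone it did not hold either. Tardbp shares 23.3% of its exon bases with Masp2 on the opposite strand, which was read at 5.74 CPM, 7.85% of the Tardbp level.

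Of 11 other RNA-binding protein genes (165 pairs), 7 pairs rose (4.24%) and 13 fell (7.88%), with a median slope of -0.00116. Sfpq, a splicing factor gene, fell in 7 regions and the neuronal RNA-binding gene Elavl3 in 2. Ewsr1, which encodes an RNA-binding protein of the FET family, rose in 6 regions, and Hnrnpa1 in 1. Tardbp levels over the 15 regions were most like those of Pcf11, Ing4 and Cdkn1b (r between 0.97 and 0.98).

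**Figure D5:**
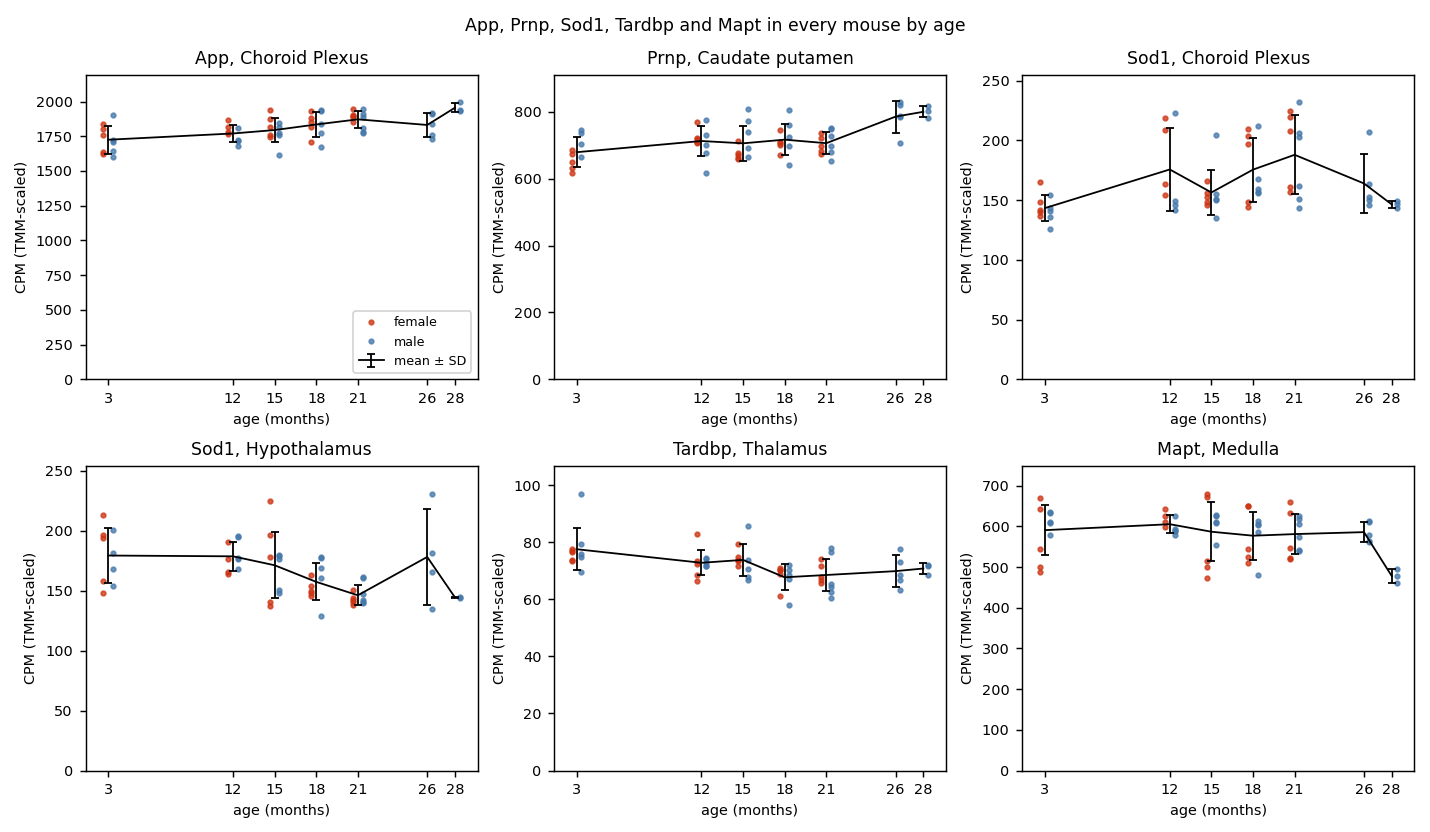
Level (y axis, TMM-scaled CPM from 0) against age in months (x axis) of App and Sod1 in choroid plexus, Prnp in caudate putamen, Sod1 in hypothalamus, Tardbp in thalamus and Mapt in medulla; points are single mice (red female, blue male) and black lines the mean ± SD. Sod1 in choroid plexus splits into libraries at 126 to 168 and at 197 to 232 CPM, and Mapt in medulla is lower at 28 months alone.

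Set against 3 months age by age, 1 of the 120 pairs was called at 12 months (1.35% of all genes and regions), 2 at 15 (1.11%), 4 at 18 (2.46%), 12 at 21 (6.18%), 9 at 26 (3.7%) and 13 at 28 months (5.77%). The call at 12 months was Mapt in olfactory bulb, and all of those at 15 and 18 months were Grn. Grn rose in 2 regions at 15 months, cerebellum and medulla, in 4 at 18, in 6 at 21 and at 26, and in 8 at 28. App rose at 21 months in choroid plexus and olfactory bulb. These comparisons share the 3-month libraries. The mice of 12, 26 and 28 months have numbers outside 16 to 56, and those of the other ages within. At 12, 26 and 28 months, a difference from 3 months cannot be told apart from one between these groups of mouse numbers. Psen2 fell in olfactory bulb at 21 months alone (-0.44 ± 0.14, adjusted p = 0.0238), where female mouse 49 of 3 months had 34.3 CPM and the other 9 had at most 14.6. Without that library the difference was -0.17 ± 0.094 (adjusted p = 0.280).

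The age slope differed between regions for 4 of the 8 genes, against 19.8% of all genes tested. Beside Grn, these were App (edgeR F-test, adjusted p = 0.00312), Mapt (adjusted p = 0.0110) and Sod1 (adjusted p = 0.0229). Prnp (adjusted p = 0.0720), Psen2 (0.113), Tardbp (0.324) and Bace1 (0.724) did not pass. With the mouse as a replicate block in limma-voom, Prnp passed as well (adjusted p = 0.0467).

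Females and males were compared at 3 to 21 months, the ages both have. Of 120 pairs, 2 differed in level, against 2.71% over all genes and regions. Both were in medulla, where 22.5% of all genes were called. Prnp was higher in males, with 983 ± 74.1 CPM (SD, n = 26) against 903 ± 73.3 (SD, n = 24) in females, and Tardbp was lower, with 54.7 ± 5.79 against 60.0 ± 4.20 (edgeR adjusted p = 0.00464 and 0.00385). No age slope differed between the sexes by edgeR's test (0 of 120, against 0.0727% of all genes). An unadjusted p under 0.05 was found for 13 pairs, a count without the share of all genes beside it. The smallest adjusted p was 0.250, for Grn in hypothalamus.

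Other genes of inherited neurodegenerative disease (18 genes, 270 pairs) gave 30 rises (11.1%) and 11 falls (4.07%), with a median slope of 0.000414. Pink1, a mitochondrial kinase gene of familial Parkinson disease, rose in 9 regions, and Optn, an autophagy receptor gene of amyotrophic lateral sclerosis, in 8. Atxn1, the ataxin-1 gene, fell in 4 regions.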

How the data were processed

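Total RNA of each dissected region was extracted with RNeasy columns and made into unstranded Smart-Seq2 libraries with Nextera XT, per the labels' protocols. The authors deposited 1 table of read counts per gene for 847 libraries. Trim Galore 0.3.7, STAR 2.5.3a, DESeq2 and the build GRCm38 stand in the submitters' processing notes. The counting program and annotation are not given in the sources used here. The 8 genes and the gene lists were chosen with earlier results of these data known.

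Counts were scaled by TMM and tested with edgeR 4.0.16 (R 4.3.3) by quasi-likelihood in each region, with sex beside age in months, after filterByExpr on the groups of sex and age. P-values were Benjamini-Hochberg adjusted over all genes of a region and called under 0.05. Joint fits over all libraries tested age by region and region level. The mouse number pairs libraries, since regions of 1 number come from the same animal, so it served as replicate block in limma 3.58.1 (mouse correlation 0.0198). Each mouse is 1 replicate. Alternatives used DESeq2 1.42.0, RLE factors, no filter, subsets of mice and further covariates. The term for the 10 genes that follow Sod1, and the removal of single libraries of mice 5 and 49, were chosen after seeing the data.

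Partner genes named are, per list, at most 2 rising and 2 falling in the most regions; 1 gene that this rule names is not reported here. Genes of like pattern are the 3 with the highest Pearson r among those of at least 5 CPM. Figures were drawn in Python 3.11.15 with matplotlib 3.10.9. On simulated data for corpus callosum (14352 genes), 30 of 99 slopes of 0.01 and 62 of 99 of 0.02 log2 per month were recovered, with 5 false calls. For age by region (1500 genes), edgeR recovered 54 of 100 at 0.02 and 81 of 100 at 0.04, with 9 false calls, and limma-voom with the block 62 and 83, with 19 false calls. The simulated libraries carried no mouse effect, so the block was not tried on libraries paired by mouse.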

Additional observations from a re-analysis of the deposited data

Results flagged for a closer look

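Each of the genes described here was looked at in the region of its steepest age slope, whether or not that slope was called. The Psen2 slope in olfactory bulb was not called. Within groups of region and age, 6 libraries stood apart from the rest of their group, among 42 groups looked at. Chance sets apart about 1 in 20. Groups at 28 months and those of 11 libraries at 21 months were not looked at. Psen2 in olfactory bulb was 34.3 CPM in female mouse 49 at 3 months, where the next library had 14.6, and 15.7 CPM in female mouse 1 at 12 months. Grn in medulla was 80.8 CPM in female mouse 13 at 12 months. Sod1 in choroid plexus was 204.6 CPM in male mouse 22 at 15 months, the 1 library of that age above the gap between 168 and 197 CPM. Tardbp in thalamus was 97.0 CPM in male mouse 17 at 3 months, where the next library had 79.4, and 82.8 CPM in female mouse 1 at 12 months.

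The age slope differed between regions by edgeR's F-test for Grn (adjusted p = 3.53e-23), App (adjusted p = 0.00312), Mapt (adjusted p = 0.0110) and Sod1 (adjusted p = 0.0229). Grn slopes ran from -0.000743 in olfactory bulb to 0.0266 in medulla, and those of App from -0.00267 in posterior hippocampus to 0.00640 in choroid plexus. The olfactory bulb slope of Grn includes a 3-month library at 120 CPM, in a group with a median of 84.5. Sod1 slopes ran from -0.0114 in hypothalamus to 0.0119 in choroid plexus. Both of these calls were lost with the 10 genes that follow Sod1 as a further term. Those genes were picked for that likeness in the same libraries, so the loss is no independent test.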

How the results depend on the processing

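The 17 rises and 2 falls with age among the 120 pairs became 10 and 0 in males alone. In mice 16 to 56 alone 9 rose, and Grn rose in 5 regions in place of 10. With no filter on low counts 1 pair fell, and with ages 3 to 21 months alone, or with library total and genes detected as covariates, 4 fell. With the microglia markers as covariate 3 pairs rose, 6 fell and Grn rose in 0 regions, counts given without the share of all genes called in that fit. Of the 19 called slopes, those that then changed sign to below 0 were Grn in caudate putamen (-0.00685), choroid plexus (-0.000603), corpus callosum (-0.00956), hypothalamus (-0.00383), medulla (-0.00955), pons (-0.0172) and subventricular zone (-0.00970), Prnp in caudate putamen (-0.00273) and App in anterior hippocampus (-0.00180). Sod1 in hypothalamus was 0.00105 with that term and 0.00201 with the 10 genes that follow Sod1. Of the 59 mice, 12 were left out in turn, the lowest number of each group of sex and age. This gave between 0 and 3 falls (0 without mouse 17, 1 without mouse 40 or 57) and between 15 and 18 rises. With the block, 3 to 5 genes passed for age by region in these fits. The other mice were not left out. In males alone the calls against 3 months were 0 at 12, 15 and 18 months, 3 at 21 and 5 at 26 months, and age by region passed for 2 genes in place of 4. Calls over all genes were fewer in males alone too. Age by region passed for 1241 of 15061 genes, in place of 2977 of 15069. At 18 months against 3, 895 of 211809 pairs of gene and region rose and 657 fell, in place of 3308 and 1978 of 214677. At 26 months 3430 rose and 2256 fell, in place of 5103 and 2841. The cause of these changes was not tested. The ratio of the highest to the lowest region mean of Tardbp was 1.90 without TMM scaling.

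With the mouse as a replicate block, age by region passed for 5 genes in place of 4, Prnp being added (adjusted p = 0.0467), and no other call of the joint fits changed. No blocked fit applies within a region, where each mouse has 1 library. Low counts limit Psen2, whose mean was as low as 12.9 CPM.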
